A study of Drosophila melanogaster with 12 samples.

Results

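The comparison described here is that of heads of flies fed pentylenetetrazole (PTZ) with heads of flies kept on normal food (NF) after 12 hrs, and it rests on the 4 arrays of that time point, of 12 arrays in the series. Both groups were unmated Oregon-R wild type males of Drosophila melanogaster, 3 to 4 days old at the start, with 30 flies per vial. PTZ flies ate NF that held 8 mg/ml PTZ for 12 hrs, while NF flies ate NF alone over the same time. Heads were sieved from frozen flies and pooled before RNA was isolated, so that a value is an average over many flies and all cell types of the head, and fewer cells of a type cannot be told apart from less RNA per cell. The methods call the 4 replicates biological. Each array held PTZ RNA and NF RNA in different dyes, and the deposited value of a spot is a log2 ratio of the 2 dyes. On replicates 1 and 2, the forward arrays, the ratio is Cy5 over Cy3. PTZ RNA was in Cy5 there, so a positive value means higher in PTZ. A dye effect of a feature stays in the forward values and cannot be told apart from PTZ on these arrays. On replicates 3 and 4 the dyes were swapped, and the sources used here do not say whether the deposited ratios of these arrays had already been turned. If these are Cy5 over Cy3 too, a positive value means higher in NF. If they had been turned, it means higher in PTZ. The labels of both swapped arrays contradict themselves on treatment or dye, and their orientation was taken from the titles and treatment protocols. Values of the swapped arrays are therefore given as deposited, and results over all 4 arrays in both readings, with the swapped arrays turned (their sign changed) and as deposited. If the deposited swapped ratios had not been turned, 1 sign on all 4 arrays as deposited is also what a dye effect gives.

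PTZ blocks GABA-gated chloride channels, through which the main inhibitory transmitter of the brain acts, and it is used to evoke seizures. Nerve cells that fire more draw on glycolysis, mitochondria and calcium transport. In insects fuel is released from glycogen and fat under adipokinetic hormone. The head also holds photoreceptors, glia, a fat body and muscle, and genes of all of these are on the array.

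Each probe was printed as 2 neighbouring spots, whose mean is called a feature here. Of 13824 features, 4642 had a value on 3 or more of the 4 arrays, and 2775 of these had 1 gene symbol, for 2613 genes. Between 9445 and 12070 spots per array had a value. The array medians over features were 0.16 and 0.00 on the forward arrays and -0.09 and 0.00 on the swapped arrays. Replicate 3 stood apart, with a Spearman rho of 0.437 between the 2 spots of a feature, against 0.657 to 0.699 on the other arrays, and with 31 spots beyond 4 on the log2 scale, against 1 to 5. Markers fixed for the cell types of the head were measured on 3 or more arrays for 4 of 6 photoreceptor genes, 1 of 3 neuron genes, 4 of 7 glia genes, 6 of 9 genes of the head fat body and 8 of 8 muscle genes. A ratio array gives no level, so this shows only that these genes passed the authors' spot filters, as did 1 of 6 genes of testis and accessory gland.

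The forward arrays, whose direction is known, were taken first. A dye effect stays in them, so "fell" and "rose" describe the measured ratio of PTZ over NF. On these 2 arrays 3938 features were tested with limma, and at a Benjamini-Hochberg adjusted p of 0.05 51 features fell in PTZ heads (1.3% of those tested) and 56 rose (1.42%). Of the 107 features called in either direction (2.72%), 66 had a gene symbol. At an unadjusted p under 0.05 there were 204 lower (5.18%) and 418 higher (10.6%). limma gave every feature the same standard error here, 0.15, so that a call depended only on the size of the mean. The smallest called mean had a size of 0.49 and the largest one not called 0.48. A gene could thus be called with unlike values on the 2 arrays, although 103 of 107 called features, 49 lower and 54 higher, had 1 sign on both. When the spread was estimated over all 12 arrays of the series no feature was called in either direction. With array medians subtracted 87 features were called lower and 21 higher, and 70 of the 107 remained.

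The genes with the largest falls on the forward arrays are given first. Bmcp, a carrier of the mitochondrial inner membrane from the uncoupling protein family, had log2 ratios of -0.56 and -1.22 on the forward arrays and 0.16 and -0.46 on the swapped arrays as deposited. Its forward mean of -0.89 was the lowest of all features tested (limma adjusted p = 2.42e-06). The 2 swapped values lay on either side of 0. ScsbetaA, a subunit of succinyl-CoA synthetase in the citrate cycle, had -0.71 and -0.62 on the forward arrays (limma adjusted p = 0.00181). On the swapped arrays it had 0.09 and -0.57, and its feature number is next to that of Bmcp. mRpL38, a protein of the large mitochondrial ribosomal subunit, had -1.50 and -0.27 on the forward arrays and 0.25 and 0.38 on the swapped arrays. Its forward mean of -0.89 was called (adjusted p = 2.42e-06), but the value of replicate 1 lay far below that of replicate 2.

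The next genes that fell belonged to transport, smell and signalling. spin, a lysosomal efflux permease needed at synapses, had -0.64 and -0.68 forward and -0.19 and -0.19 swapped. A second spin feature, with no forward value, had -1.55 and 0.02 on the swapped arrays. Obp56h, an odorant binding protein, had -0.67 and -0.91 forward and 0.09 and -0.06 swapped. This fall was not seen at a second feature of Obp56h, with 0.00 and -0.01 forward. grk, which encodes gurken, a ligand of the EGF receptor best known from the ovary, had -0.69 and -0.57 forward and 0.27 and 0.22 swapped, so that its signs were opposite between orientations. CG18011 (forward mean -0.77), CG7110 (-0.73), CG31974 (-0.64) and CG2063 (-0.64) completed the 10 largest falls with 1 sign on both arrays. Of CG18011 a second feature had a forward mean of -0.15, which did not pass the test.

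Among the genes that rose on the forward arrays, DnaJ-1, the main cytosolic Hsp40 co-chaperone of the fly, was called at 3 separate features. The first had log2 ratios of 0.67 and 0.95 on the forward arrays (adjusted p = 3.6e-05) and -0.47 and -1.17 on the swapped arrays as deposited. The second had 0.35 and 0.74 forward (adjusted p = 0.0196) and -0.51 and -0.88 swapped. The third had 0.62 and 1.49 forward (adjusted p = 2.77e-09) and no value on the swapped arrays. At the first 2 features all forward values were above 0 and all swapped ones below 0, the pattern of opposite sign that a dye swap gives where ratios have not been turned. Another 2 DnaJ-1 features did not show it, with forward means of 0.04 and -0.22 that did not pass the test and swapped means of 0.07 and -0.10, and the sixth had a value of 0.19 on replicate 1 only. Features of 1 gene symbol can differ in the clone spotted, and which transcript each clone covers was not tested.

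**Figure D1:**
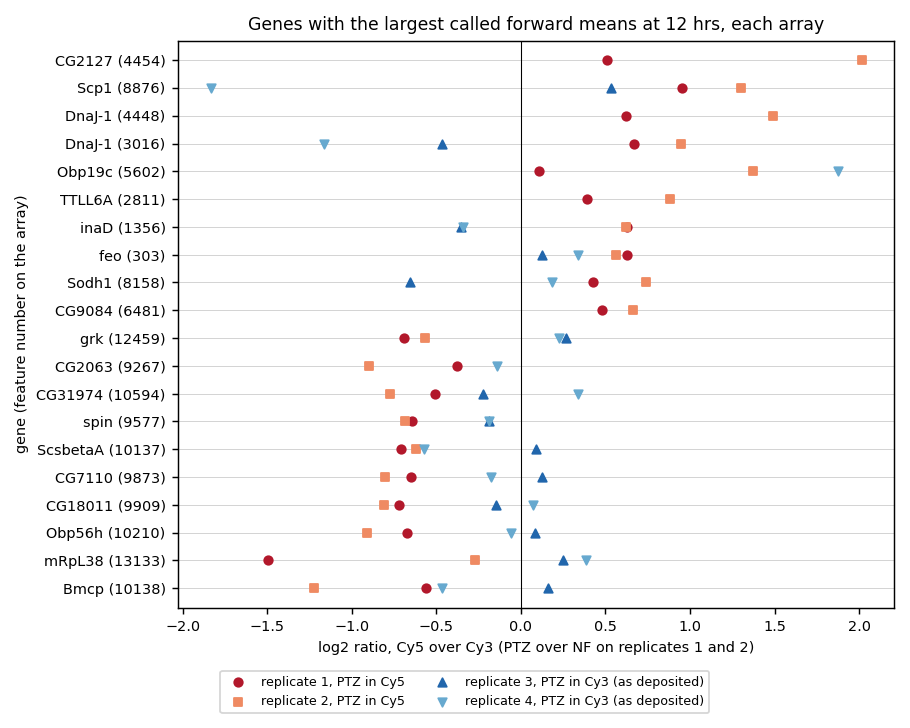
Log2 ratio (x axis) of the 20 called features with a gene symbol, 1 sign on both forward arrays and the largest forward means at 12 hrs (y axis, gene and feature number), with 1 point per array. The forward points of replicates 1 and 2 lie on 1 side of 0 by the rule of choice, while the swapped points as deposited lie on either side, for example at -0.47 and -1.17 for a DnaJ-1 feature and at -0.19 and -0.19 for spin.

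Genes of muscle, metabolism and the eye were also among those that rose. Scp1, a sarcoplasmic calcium-binding protein, had 0.95 and 1.30 on the forward arrays (adjusted p = 1.08e-10) but 0.53 and -1.83 on the swapped arrays, which thus went opposite ways. Sodh1, a sorbitol dehydrogenase, had 0.43 and 0.74 forward and -0.66 and 0.19 swapped. inaD, the scaffold that holds the phototransduction proteins together, had 0.63 and 0.62 forward (adjusted p = 0.00432) and -0.35 and -0.35 swapped, nearly equal within each orientation. feo, a microtubule bundling protein of dividing cells, had 0.63 and 0.56 forward and 0.13 and 0.34 swapped, positive on all 4 arrays as deposited. CG2127, with 0.51 and 2.02, TTLL6A, with 0.39 and 0.88, and CG9084, with 0.48 and 0.66, had forward values only. Obp19c had 0.11 and 1.37 forward and 1.88 on replicate 4, against 0.31 and 0.20 forward at its other feature.

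The calls of the forward arrays moved with feature number. Position here means this number only, since no coordinates on the slide are given. Of the features called lower 45 of 51 lay among features 6913 to 13824 by feature number, and of those called higher 46 of 56 lay among features 1 to 6912, while 2308 of the features tested lay in the lower range of numbers and 1630 in the upper range. Over all features the medians of the lower range were 0.23 and 0.08 on replicates 1 and 2 and -0.20 and -0.06 on replicates 3 and 4, and those of the upper range were 0.05 and -0.13 on replicates 1 and 2 and 0.04 and 0.08 on replicates 3 and 4. Neighbouring features had a Spearman rho between 0.415 and 0.542 on the 4 arrays. When the median of 25 neighbours on each side was subtracted on each array, 11 features were called lower and 11 higher, and 15 of the 107 remained. Among those that remained with a gene symbol were Scp1 (adjusted p = 0.00543), dsx (0.0105), Sodh1 (0.0149), Obp56h (0.0201), CG31974 (0.0219), the third DnaJ-1 feature (0.0372), Gbs-76A (0.0451) and glo (0.0451). No other gene named here as called on the forward arrays kept its call with neighbours subtracted. The part of position in these calls was not tested further.

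**Figure D2:**
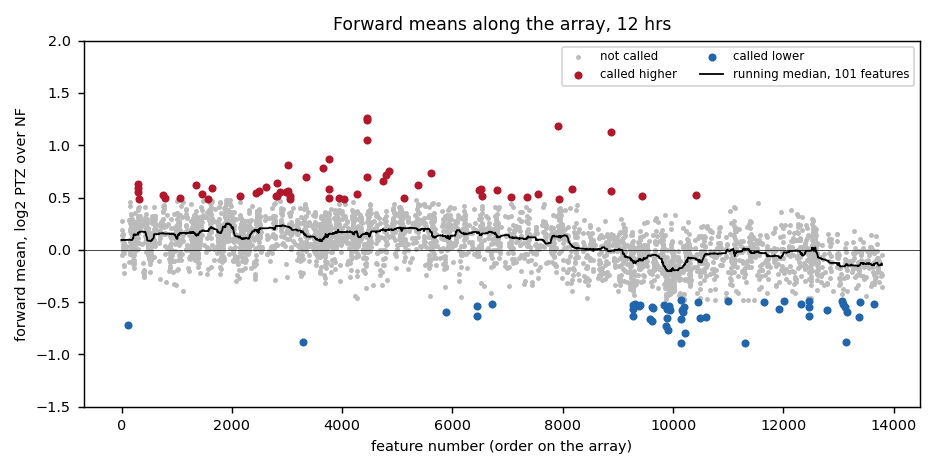
Mean log2 ratio of PTZ over NF on the 2 forward arrays (y axis) against the feature number (x axis), with 1 point per feature and called features in colour. The line is the running median over 101 features. Called higher features, 46 of 56, lie mostly at feature numbers 1 to 6912 and called lower features, 45 of 51, mostly at 6913 to 13824.

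The swapped arrays gave no feature past the threshold among 4841 tested with limma, 234 with a negative and 118 with a positive mean at an unadjusted p under 0.05 (4.83% and 2.44% of those tested). With the spread of each feature alone, 3 features were called lower and 1 higher. These were features with equal or nearly equal values on the 2 swapped arrays, with means between -0.28 and 0.04. Replicates 3 and 4 correlated less with each other than the forward arrays did, with a Pearson r of 0.136 and a Spearman rho of 0.312 over 4455 features, against 0.422 and 0.424 over 3902 features for replicates 1 and 2. Between orientations the deposited values ran opposite ways or were unrelated. Spearman's rho was -0.185 for replicates 1 and 3, -0.024 for 1 and 4, -0.184 for 2 and 3 and -0.314 for 2 and 4. These are correlations across features that share arrays and position, and features are not independent replicates.

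Single features showed the same lean. Of the 3715 features measured on all 4 arrays, 851 were positive on both forward and negative on both swapped arrays (22.9%) and 221 were the reverse (5.95%), so that these had 1 sign when the swapped arrays were turned. As deposited, 194 were positive on all 4 arrays (5.22%) and 182 negative on all 4 (4.9%). After the median of each array was subtracted the counts were 539 and 461 turned and 218 and 268 as deposited. Among the 51 features called lower on the forward arrays 49 had both swapped values, 16 with both positive and 13 with both negative, and among the 56 called higher 44 had both, 17 with both negative and 7 with both positive. The called features thus did not settle into 1 reading.

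Genes with several features allowed a further look. Over 150 genes with 2 features on 3 or more arrays, the means of the 2 features had a Spearman rho of 0.339 with the swapped arrays turned and of 0.138 as deposited. It was 0.274 for forward means over 126 genes and 0.257 for swapped means over 140 genes. The 2 features share arrays, and in 147 of the 150 genes they lay over 50 features apart.

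**Figure D3:**
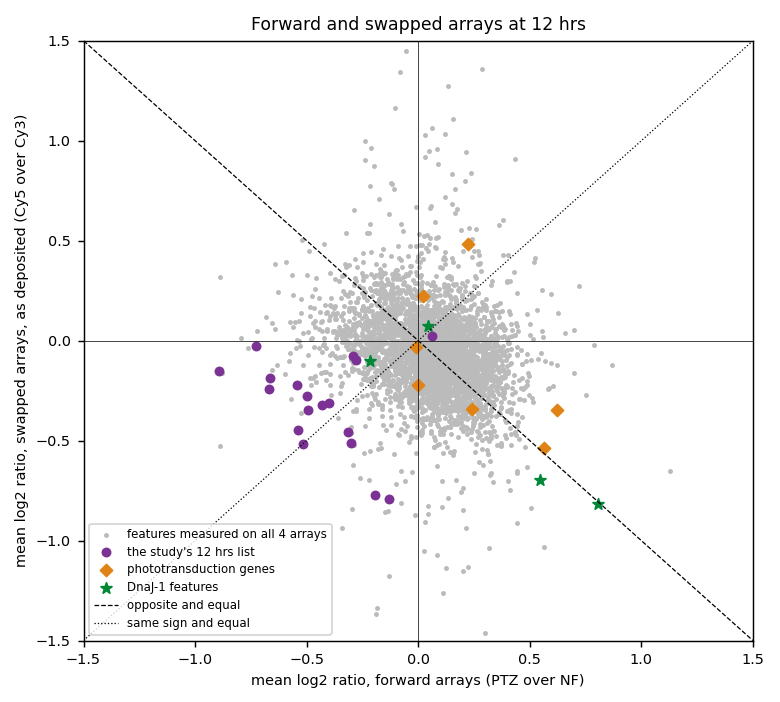
Mean log2 ratio of the 2 swapped arrays as deposited (y axis) against that of the 2 forward arrays (x axis), with 1 point per feature measured on all 4 arrays; 11 of 3715 features lie outside the axes. The dashed line marks equal values of opposite sign and the dotted line equal values of the same sign. The DnaJ-1 features on 4 arrays that were called, inaD and Arr1 lie to the lower right, and the genes of the study's 12 hrs list lie mostly to the lower left.

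With all 4 arrays and the swapped arrays turned, 4642 features were tested with limma and none passed the threshold in either direction. An unadjusted p under 0.05 was found for 173 features with lower values in PTZ heads (3.73%) and 551 with higher values (11.9%), and the smallest adjusted p was 0.237. A 1-class SAM with all 16 sign flips, at a false discovery rate of 0.23, called 16 lower and 1272 higher. The array medians given above were left in, and SAM was not run with them subtracted. The study's own 1-class SAM, at a similar rate, reported only lower genes at 12 hrs. The genes with the smallest p that had 1 sign on all arrays in this reading were, on the higher side, both DnaJ-1 features named first, CR32477, Rab9, Fas1 and Prp18, and on the lower side glo, CG6567, TAF1B, SKIP, sug and grk. The first DnaJ-1 feature averaged 0.81 ± 0.31 and the second 0.62 ± 0.23 (SD, n = 4). CR32477, a non-coding gene, had 0.62 and 0.51 forward and 1.22 and 0.84 turned, a mean of 0.80 ± 0.32 (SD, n = 4). Fas1, the cell adhesion protein fasciclin 1 of axons, averaged 0.56 ± 0.24, and Prp18, a splicing factor, averaged 0.43 ± 0.05 (SD, n = 4 each), the narrowest spread among these genes. Rab9, a GTPase of transport from endosomes, averaged 0.82 ± 0.37 over 3 arrays.

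On the lower side glo, an RNA-binding protein that represses translation, had -0.64 and -0.40 forward and -0.51 and -0.50 turned, a mean of -0.51 ± 0.10 (SD, n = 4). SKIP, named for its interaction with the Shal potassium channel, averaged -0.41 ± 0.18. TAF1B, of the RNA polymerase I machinery, averaged -0.43 ± 0.13, and sug, the sugar-responsive transcription factor sugarbabe, averaged -0.39 ± 0.14 (SD, n = 4 each). Each of these genes had all 4 values on 1 side of 0, yet none was called. With the spread of very variable features handled robustly, the first DnaJ-1 feature and CR32477 were called higher (limma adjusted p = 0.0299 each).

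Without replicate 3, the array that stood apart, the turned reading gave 15 lower and 28 higher features past the threshold in limma. Features that rose then included Scp1 (adjusted p = 5.55e-07), both DnaJ-1 features (7.22e-05 and 0.00941), Arr1 (0.00809), CR32477 (0.00809), Fas1 (0.0182), inaD (0.0261), inaF-D (0.047) and Act79B (0.0472). Those that fell included CG31974 (0.0261), CG6567 (0.0261), mRpL38 (0.0261), glo (0.0271), SKIP (0.0289), grk (0.0408) and sug (0.047). These genes were picked out after their values were seen. Without any of the other arrays no feature was called in this reading.

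As deposited, none of the 4642 features passed the threshold either, and the smallest adjusted p was 0.997. An unadjusted p under 0.05 was found for 71 features with a negative mean (1.53%) and 84 with a positive mean (1.81%), and SAM called 5 lower. The features with the smallest p and 1 sign included CG3407, with -0.45 and -0.58 forward and -0.52 and -0.51 swapped, a mean of -0.52 ± 0.05 (SD, n = 4). Gbs-76A, which brings protein phosphatase 1 to glycogen, had -0.55 and -0.53 forward and -0.59 and -0.30 swapped, a mean of -0.49 ± 0.13. dsx, the doublesex transcription factor of sexual differentiation, had -0.58 and -0.60 forward and -0.52 on replicate 4. These 3 genes had every measured value at or below -0.30 as deposited. CG5707 averaged -0.42 ± 0.10 and trbd, a deubiquitinating enzyme, averaged -0.48 ± 0.35 (SD, n = 4 each). A second trbd feature had 0.13 and 0.14 forward and -0.54 and -0.04 swapped, a mean of -0.08 ± 0.32 (SD, n = 4), and did not repeat the low values of the first on the forward arrays. On the higher side CG3036 averaged 0.40 ± 0.09, CG6345 averaged 0.42 ± 0.19 and the cytochrome P450 gene Cyp28d1 averaged 0.41 ± 0.18 (SD, n = 4 each). A second Cyp28d1 feature had a value on replicate 4 only, -0.11, against 0.54 on that array at the first. CG17010 averaged 0.62, r-cup 0.71 and Obp19c 1.12 over 3 arrays each, and Pli averaged -0.91 over 3 arrays. When the swapped arrays were turned, the means of CG3407 and Gbs-76A shrank to 0.00 and -0.05.

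The genes that the study lists for 12 hrs were chosen on these same arrays, so their counts are no independent evidence of a direction. Of these, 20 matched a gene measured on 3 or more arrays. On the forward arrays 18 of 19 had a negative mean, 10 were called lower (limma, against 1.3% of all features tested) and none higher, and the median was -0.49, against 0.08 over all features. On the swapped arrays as deposited their median was -0.28, against -0.05 over all features. With the swapped arrays turned the median over the 20 genes was -0.06, against 0.07 over all features, and none had an unadjusted p under 0.05. As deposited it was -0.40, against 0.00, and 17 had an unadjusted p under 0.05, all lower (1.53% of all features tested). None passed after adjustment. Apart from the arrays, the paper reports an RT-PCR check that used a replicate not hybridised to them. It describes lower levels under PTZ for every gene assayed, AkhR, Gbs-70E and Gbs-76A among them. Its text does not say at which time each gene was assayed. Whether these PCR results bear on the reading of the swapped arrays was not tested.

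Several of these genes act in the supply of fuel. AkhR, the receptor of adipokinetic hormone, had -0.60 and -0.49 forward (adjusted p = 0.0196) and -0.23 and -0.22 swapped. Gbs-70E, the other glycogen-binding subunit of protein phosphatase 1, had -0.40 and -0.23 forward and -0.57 and -0.34 swapped. apolpp, the precursor of the lipoproteins that carry fat in the blood, had -0.15 and -0.11 forward and -0.65 and -0.94 swapped. All 3 genes were negative on all 4 arrays as deposited, but only AkhR passed the test on the forward arrays. A second feature of apolpp had -0.20 and -0.42 forward and -0.32 and -0.59 swapped. The feature next in number to the first apolpp feature belongs to trbd, which had -0.15 and -0.24 forward and -0.68 and -0.87 swapped. These values were close to those of apolpp on each array, unlike the second trbd feature given above.

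Others act in calcium transport or belong to the cytochrome P450 genes. MCU, the calcium uniporter of mitochondria, had -0.46 and -0.40 forward and -0.11 and -0.54 swapped. A second MCU feature had a value on replicate 4 only, 0.04. Nckx30C, a sodium/calcium exchanger of photoreceptors and nerve cells, had -0.13 and -0.48 forward and -0.67 and -0.36 swapped, and at a second feature 0.15 and -0.50 forward and -0.46 and -0.17 swapped. Cyp4d21, a cytochrome P450 gene also on the list of head fat body markers, had -0.61 and -0.39 forward (limma adjusted p = 0.041) and -0.03 and -0.53 swapped. Cyp4ac1 had -0.56 on replicate 2 and -0.24 and -0.30 swapped. Of these, Cyp4d21 alone was called. Drat had -0.25 and -0.55 forward and -0.28 and -0.35 swapped. CtBP, a transcriptional corepressor, had -0.36 and -0.23 forward and 0.30 and -0.45 swapped, and Acer, a peptidase of the angiotensin-converting enzyme family, had -0.44 and -0.12 forward and 0.29 and -0.48 swapped. At these features the swapped arrays lay on either side of 0. A second CtBP feature had -0.25 and -0.28 forward and 0.10 and 0.45 swapped, so that both swapped values were positive there, a turned mean of -0.27 (limma adjusted p = 0.292). The values of Cnx99A, the chaperone calnexin of the endoplasmic reticulum, lay around 0 at its feature on 4 arrays, from -0.26 to 0.30, while a second feature had -0.54 on replicate 1 and -0.35 on replicate 4 and no value on the other arrays.

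**Figure D4:**
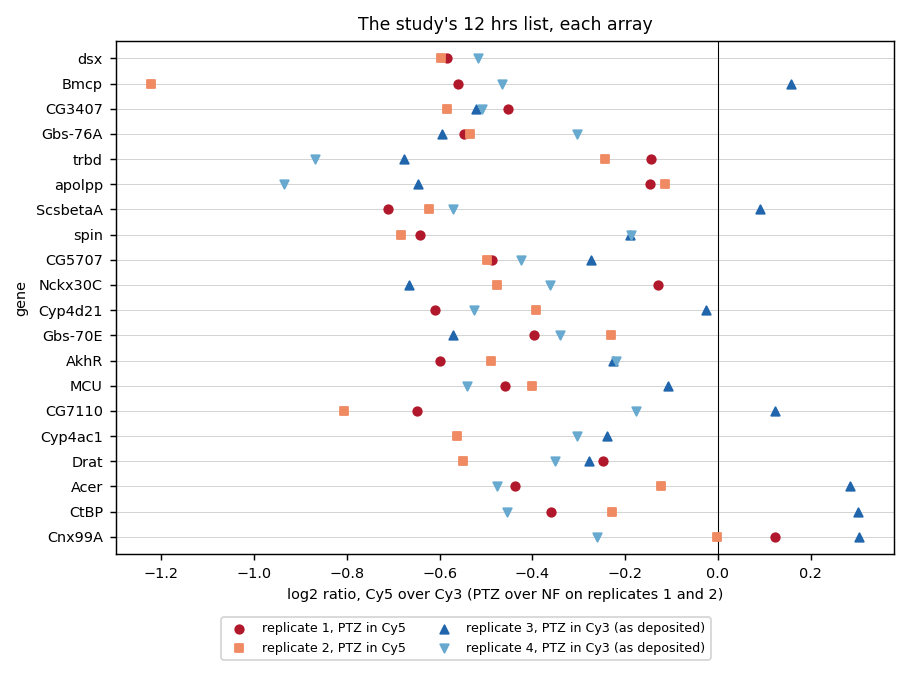
Log2 ratio (x axis) of the 20 genes of the study's 12 hrs list that were measured on 3 or more arrays (y axis), with 1 point per array and the swapped arrays as deposited. On the forward arrays 18 of 19 genes have a negative mean, and the triangles of the swapped arrays reach 0.30 for CtBP and Cnx99A.

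Genes of inhibitory transmission, on which PTZ acts, gave no call on the 12 hrs arrays alone. Of 7 genes of GABA signalling on the array 5 were measured on 3 or more arrays. None was called on the forward or swapped arrays, or over all 4 arrays in either reading. Against the 2nd day 1 of 4 was called higher at 12 hrs, as were 11.5% of all features tested. That call was lost with array medians subtracted. Their forward means ran between -0.25 and 0.21 with a median of 0.12, against 0.08 over all features. Gad1, which makes GABA from glutamate, had 0.23 and 0.19 forward and -0.30 and -0.29 swapped, a turned mean of 0.25 ± 0.05 (SD, n = 4; adjusted p = 0.292). A second Gad1 feature had 0.00 and 0.00 forward and -0.43 and -0.08 swapped. Lcch3, a subunit of GABA-gated channels, had -0.28 and -0.22 forward and -0.27 and -0.04 swapped. Gat, the GABA transporter, had -0.04 and 0.27 forward and 0.92 and -0.15 swapped.

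Genes of excitatory and amine transmission were likewise not called on the 12 hrs arrays alone. Against the 2nd day 1 of 7 genes of glutamate and acetylcholine signalling and 3 of 8 of amine signalling were called higher at 12 hrs. The same held for 3 of 4 genes of the vesicle cycle and 1 of 4 voltage-gated channels, and none was called lower. The share over all features was 11.5% higher, and none of these calls was kept with array medians subtracted. Of 7 genes of glutamate and acetylcholine signalling on both forward arrays 5 had a positive and 2 a negative mean, while 64.7% of all features tested had a positive one. Among them were nAChRbeta1, a nicotinic receptor subunit, with 0.10 and 0.50 forward and -0.35 and -0.32 swapped, and Ace, acetylcholinesterase, with -0.38 and -0.25 forward and -0.25 and 0.16 swapped. Eaat2, a glial transporter of excitatory amino acids, had -0.13 and -0.25 forward and 0.60 and 0.16 swapped. Of 8 genes of amine signalling 6 had a negative forward mean, and all lay between -0.23 and 0.27. Among the voltage-gated channels Shab, a delayed rectifier potassium channel, came nearest to a call with -0.45 and -0.48 forward (limma adjusted p = 0.0664) and 0.38 and -0.05 swapped. Genes of the vesicle cycle had forward means between -0.15 and 0.27, with alphaSnap, which takes SNARE complexes apart, at 0.25 and 0.29 forward and -0.31 and -0.61 swapped. Of the genes that activity is known to induce, kay, the fly Fos, had 0.15 and 0.15 forward and -0.45 and -0.21 swapped, and CG13868 had -0.37 and -0.59 forward (limma adjusted p = 0.0525) and -0.28 and -0.16 swapped. Of 6 clock genes 5 had a negative forward mean, with a median of -0.12, and none was called.

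Genes of phototransduction, the signalling of the eye from light to channel opening, held 2 calls among 8 genes on the forward arrays, both higher (background 1.42%). These were inaD and Arr1, the arrestin that shuts off rhodopsin, with 0.46 and 0.67 forward (adjusted p = 0.0141) and -0.25 and -0.82 swapped. With neighbours subtracted neither was called (limma adjusted p = 0.0581 for inaD and 0.178 for Arr1). inaC, the eye's protein kinase C, had 0.18 and 0.31 forward and -0.31 and -0.38 swapped. trp, the main light-activated channel, had 0.62 on replicate 2 and -0.06 and -0.50 swapped. In the turned reading these 4 genes had an unadjusted p under 0.05, all higher, of 9 genes tested (background 11.9%). trpl, the related channel, had 0.09 and 0.36 forward and 1.82 and -0.86 swapped, and rdgB and rdgA, of lipid turnover, had forward means of -0.01 and 0.02. The photoreceptor list shares inaD, Arr1, trp and trpl with it, so the level of these genes and the number of photoreceptors cannot be told apart.

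Genes of energy metabolism held few calls. On the forward arrays 64.7% of all features tested had a positive mean, and the counts of positive means of each list are to be set against that share. Of 25 genes of the respiratory chain 21 had a positive forward mean, with a median of 0.13, and none was called. COX4, a subunit of cytochrome c oxidase, had 0.51 and 0.40 forward (limma adjusted p = 0.0763) and -0.39 and -0.19 swapped. In the turned reading 7 of 28 had an unadjusted p under 0.05, all higher, against 11.9% of all features. Of 16 genes of glycolysis and the citrate cycle 12 had a positive forward mean. Mdh1, malate dehydrogenase, was called higher with 0.52 and 0.50 forward (adjusted p = 0.0336) and -0.35 and -0.22 swapped, and ScsbetaA was the one called lower, and neither kept its call with neighbours subtracted (adjusted p = 0.139 and 0.432). Of 16 cytosolic ribosomal protein genes 15 had a positive forward mean, with a median of 0.22, and RpL23 was called higher, with 0.68 and 0.35 forward and -0.16 and 0.18 swapped. With neighbours subtracted the medians of these 3 lists were 0.07, 0.08 and 0.09, against -0.01 over all features.

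Mitochondrial ribosomal protein genes had 8 of 14 forward means positive and a median of 0.01, and their 2 calls went opposite ways, mRpL38 lower and mRpS6 higher, with 0.59 and 0.54 forward. Of 10 proteasome genes 9 had a positive forward mean, with a median of 0.25, but on the swapped arrays as deposited their median was 0.03. Of 6 genes of the vacuolar ATPase, the proton pump that acidifies vesicles, 5 had a positive forward mean, with VhaAC45 at 0.30 and 0.43 forward and -0.43 and -0.28 swapped. None of these proteasome or proton pump genes was called.

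The lists of cytochrome P450, glutathione transferase and antioxidant genes held 2 calls on the forward arrays. Both were cytochrome P450 genes that fell, 2 of 23 (1.3% of all features were called lower). Cyp4d21, among them, is also of the study's list, chosen on these same arrays, so this count is no independent evidence. Of these 23 genes on both forward arrays 16 had a positive mean, against 64.7% of all features, with a median of 0.14, but the calls went to Cyp4d21 and to Cyp4d8, with -0.41 and -0.74 forward (adjusted p = 0.012) and -0.28 and 0.15 swapped. With neighbours subtracted neither was called, as the forward mean was -0.06 for Cyp4d8 (limma adjusted p = 0.883) and -0.29 for Cyp4d21 (0.307). Cyp9f2 had 0.17 and 0.57 forward and -0.51 and -0.53 swapped, a turned mean of 0.45 ± 0.19 (SD, n = 4), with an unadjusted p of 0.00187 in limma that did not pass after adjustment. Of 11 glutathione transferase genes 9 had a positive forward mean, with a median of 0.23, and none was called. GstD1, the most studied of them, had 0.29 and 0.21 forward and 0.13 and 0.04 swapped, so it was positive on all 4 arrays as deposited. Of the antioxidant genes Trxr1, thioredoxin reductase, had 0.20 and 0.31 forward and -0.67 and -0.37 swapped.

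**Figure D5:**
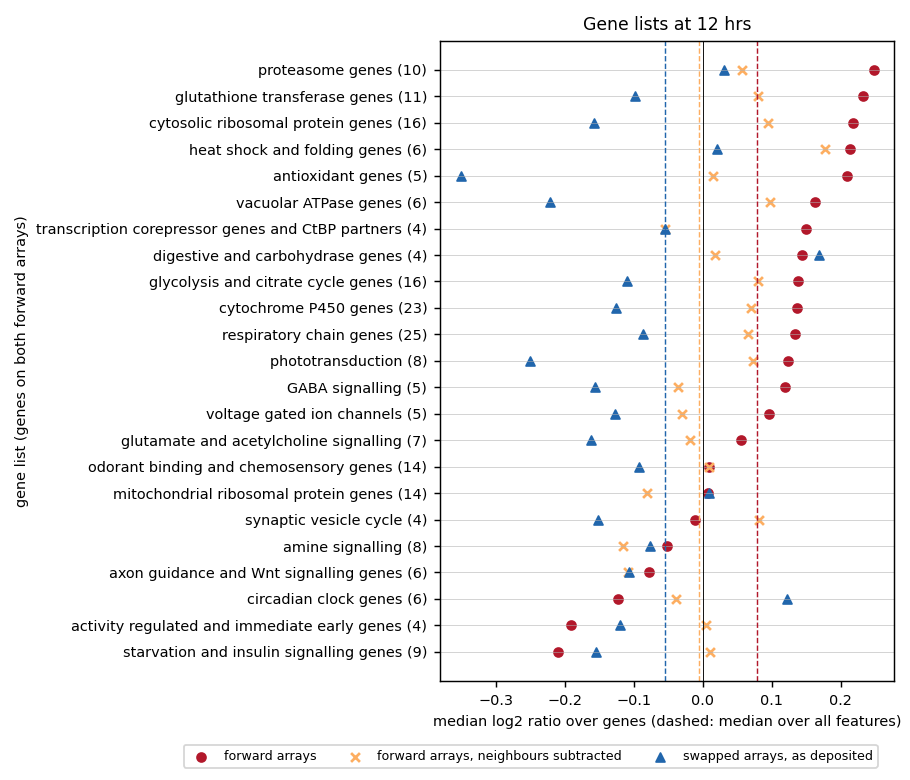
Median log2 ratio over the genes (x axis) of each list with 4 or more genes on both forward arrays, the study's 12 hrs list left out (y axis, number of genes in parentheses), for the forward arrays, the forward arrays with neighbours subtracted, and the swapped arrays as deposited. Dashed lines mark the medians over all features, 0.08, -0.01 and -0.05, and the forward medians of the lists shown run between -0.21 and 0.25.

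Genes of starvation and insulin signalling, which respond to feeding, had the lowest forward median of the lists with 4 or more genes apart from the study's list, -0.21 over 9 genes, but 0.01 with neighbours subtracted. AkhR and Gbs-76A were called lower, 2 of 9 against 1.3% of all features. Both, and Gbs-70E, are also of the study's list, which was chosen on these same arrays. This count and the low median are thus no independent evidence about the list. With neighbours subtracted Gbs-76A kept its call and AkhR did not (forward mean -0.395, limma adjusted p = 0.155). bmm, the brummer lipase that breaks down stored fat, had 0.56 and 0.23 forward and 0.17 and 0.43 swapped, positive on all 4 arrays as deposited. tobi, an insulin-responsive glucosidase, had 0.50 and 0.39 forward and -1.70 and -0.12 swapped. foxo, the transcription factor held back by insulin, had -0.22 and -0.40 forward and 0.09 and 0.01 swapped. None of bmm, tobi and foxo was called. Of 10 digestive genes on the array 5 were measured on 3 or more arrays and 4 on both forward arrays, all 4 with positive means of at most 0.27. Of the heat shock and folding genes, DnaJ-1 was the only 1 of 6 called, and Hsp68, a heat-inducible Hsp70, had -0.05 and 0.19 forward and -0.13 and 0.25 swapped. The chaperonin subunits CCT1 and CCT3 had forward means of 0.35 and 0.44, which did not pass the test.

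The 12 hrs arrays were then compared with those of later times of the same treatment, over forward arrays, to see which ratios differed with time on PTZ. Against the 2nd day, limma called 413 features higher (11.5%) and 15 lower (0.419%) at 12 hrs among 3581 tested, and 30.3% were higher and 1.2% lower at an unadjusted p under 0.05. Whole arrays had moved between these times, since the 2 array medians were 0.16 and 0.00 at 12 hrs, against -0.14 and -0.20 on the 2nd day. With array medians subtracted 1 feature was called higher and none lower. That feature was apolpp, with forward means of -0.13 at 12 hrs and -1.63 on the 2nd day. The difference was 1.50 with a standard error of 0.20 (limma adjusted p = 8.7e-11, and 0.0301 with array medians subtracted). Before medians were subtracted limma's prior was infinite in this contrast, so every feature had the same standard error. Over all 4 arrays of both times in either reading, or with the spread of all 12 arrays, apolpp was not called. Its swapped means as deposited were -0.79 at 12 hrs and -0.56 on the 2nd day, which as deposited ran the other way.

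Other genes had large differences that did not pass with array medians subtracted. Fst, the cold-induced gene Frost, had forward means of 0.28 at 12 hrs and -1.02 on the 2nd day. tw, a protein O-mannosyltransferase, had 0.25 at 12 hrs and -0.91 on the 2nd day. CG3036 had 0.38 at 12 hrs and -0.78 on the 2nd day. Lower at 12 hrs was mRpL38, with -0.89 at 12 hrs against 0.14 on the 2nd day. The same held for hd, needed for DNA replication (0.24 at 12 hrs against 0.97), Bmcp (-0.89 at 12 hrs against -0.22) and zetaTry, a trypsin (-0.42 at 12 hrs against 0.24). Of genes called at 12 hrs, dsx had a forward mean of -0.59 at 12 hrs against -1.45 later, and Cyp4d21 had -0.50 against -1.31. The forward mean of spin was -0.66 at 12 hrs against -0.70 on the 2nd day. Against the 7th day 1086 features were on all 4 forward arrays and limma called none, while 17 were lower (1.57%) and 16 higher (1.47%) without adjustment at 0.05. On simulated data of that comparison 30.5% of changes of 1 on the log2 scale were recovered, so a change of this size would mostly have been missed.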

How the data were processed

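RNA of fly heads was hybridised by the authors to 2-dye cDNA arrays, scanned and quantified with GenePix Pro and normalized by ratio in Acuity. The deposited log2 ratios, filtered by the authors on spot quality, were used as given. Their range fits a log2 scale, they were left centred as in the deposited files, and the direction of the swapped arrays is unknown. Signal over background and depth are not given, so the number of arrays limits the precision. All value columns were mapped to samples (0 were not). Of 27648 spots 15116 had 1 gene symbol, 102 several and 12430 none here, and of 7558 features with 1 symbol 7447 found a current symbol in the fly annotation through their gene ID. No coordinates or sequences are given.

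Adjacent spots were averaged. Means were tested with limma (version 3.58.1, in R 4.3.3), as 2-sided tests, and called at a Benjamini-Hochberg adjusted p of 0.05, on features with values on both arrays of an orientation, on 3 or more of 4 arrays, or on all 4 forward arrays of 2 times. The tests treat the arrays as independent, and the labels do not tie arrays of different times. limma's prior was infinite on the forward arrays and in the contrast with the 2nd day, which gave 1 standard error to all features of each test. In simulated data with 200 changed features, 53% of changes of 0.5 and 100% of changes of 1 on the log2 scale were recovered on the forward arrays (3938 features), 0% and 98% on the swapped arrays (4841), 61% and 99.5% turned and 38.5% and 99.5% as deposited (4642 each). Unchanged features were called 8 and 11 times on the forward arrays and 10 and 27 times on the swapped arrays. The simulated noise was independent between features, whereas neighbouring features of the real arrays correlated, so recovery in the data can differ. It was drawn with limma's own variances and no array offset. On the forward arrays every simulated feature thus had the 1 variance that the test assumes, and recovery there cannot check that assumption.

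Named genes are those with 1 symbol and the largest called means (10 per direction on the forward arrays, 5 on the swapped arrays, 4 per time contrast), the 6 per direction with the smallest p over all 4 arrays where none passed, each with 1 sign on its arrays (time contrasts excepted), the genes of the study's list and up to 4 members per list. Other genes named were chosen after their values were seen. Where features repeat a gene, lists use the one with values on most arrays. The comparison, lists and rule were chosen with earlier results of these data known. Columns of the later time points entered only the time contrasts and the fit over all arrays. Alternatives were array medians or neighbours subtracted, both spots required, averages per gene, other array minimums, a dye coefficient, robust moderation, a fit over 12 arrays, 1-class SAM with all 16 sign flips at a false discovery rate of 0.23, a replicate block, each array left out and, chosen after seeing the data, values beyond 4 left out and the spread of each feature alone.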

Additional observations from a re-analysis of the deposited data

Results flagged for a closer look

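Of 145 named features on all 4 arrays, each set of 4 values was searched in both readings (290 sets) for 1 array far from the others, and 7 sets and 1 measure of array quality were marked. Chance marks about 1 in 20 such sets. As deposited, ple, which makes dopa, had -0.38 on replicate 3, against 0.08 to 0.17 on the other arrays. With the swapped arrays turned, alphaSnap had 0.61 on replicate 4, crq, a scavenger receptor of blood cells, had -0.33 on replicate 3, Vha44 had -1.91 on replicate 3, CtBP had 0.45 on replicate 4, Cyp9f2 had 0.17 on replicate 1 and mRpL38 had -1.50 on replicate 1. Among the arrays, the median difference between the 2 spots of a feature was 0.176 on replicate 3, against 0.11 to 0.121 on the others.

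The effect of PTZ differed between 12 hrs and the 2nd day by limma's test of the difference on forward arrays for apolpp (1.50), Fst (1.30), tw (1.16) and CG3036 (1.16), higher at 12 hrs, and for mRpL38 (-1.02), hd (-0.73), Bmcp (-0.67) and zetaTry (-0.66), lower at 12 hrs. With array medians subtracted only apolpp of these passed. None of them passed over all 4 arrays of both times in either reading, or with the spread of all 12 arrays.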

How the results depend on the processing

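Forward calls, 51 lower and 56 higher, became 87 and 21 with array medians subtracted (70 of the 107 kept), 11 and 11 with neighbours subtracted, 10 and 6 per gene, 0 and 0 in a fit over 12 arrays and 0 and 1 with the spread of each feature alone, the 1 being a feature with equal values on both arrays. With array medians subtracted 80.6% of the calls were lower, against 47.7%. With 1 array and the spread of 12 arrays they were 0 to 1 lower and 0 higher. Swapped arrays gave 3 lower and 1 higher with the spread of each feature alone, and 0 to 83 and 0 to 89 when an array was left out, the highest counts without replicate 4. Turned, robust moderation called 2 higher, and SAM, with array medians left in, called 16 lower and 1272 higher. Counts were 0 to 15 and 0 to 28 when an array was left out, all without replicate 3. As deposited, SAM called 5 lower, and counts were 0 to 4 and 0 to 3 when an array was left out, the highest without replicate 3; without replicate 4 it was 1 higher. Other settings left the counts over 4 arrays at 0, a dye coefficient included. Against the 2nd day, 15 lower and 413 higher became 0 and 1 with array medians subtracted, 0 and 2 with a replicate block, 0 and 0 over all arrays turned, 0 and 4 over all arrays as deposited, and 0 and 0 in a fit over 12 arrays; leaving out an array gave 1 to 26 and 57 to 705, the fewest without 2nd day replicate 1 or 2 and the most without 12 hrs replicate 2. Against the 7th day, 4 were higher over all arrays as deposited, and leaving out an array gave 0 to 98 and 0 to 336, the most without 7th day replicate 2. Numbers did not pair arrays between times, as deviations of same-numbered arrays correlated between -0.08 and 0.05. The block gave 0 calls against the 7th day. In the other reading 6 turned means changed sign, CR32477 (-0.23), both DnaJ-1 features (-0.076 and -0.0045), Fas1 (-0.0735), Rab9 (-0.20) and TAF1B (0.11), as did 7 deposited means, CG3036 (-0.025), CG6345 (-0.011), Cyp28d1 (-0.15), Obp19c (-0.13), Pli (0.73), r-cup (-0.15) and trbd (0.29). The causes were not tested.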
